A study of Homo sapiens with 9 samples.

Results

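Ethanol was compared with no ethanol in embryoid bodies at day 21, once without and once with a second additive that the labels call FA. The 4 arrays of that day were taken by their labels, out of 9 arrays in the series: 2 with ethanol (EtOH alone, and EtOH with FA) and 2 without it (no addition, called untreated here, and FA alone). All of them came from NCCIT, an established human embryonal carcinoma line, grown as floating embryoid bodies in non-adherent dishes. The treatment text gives ethanol at 50 mM with daily medium changes and speaks of 7 days only, although the same text is attached to all the arrays, and no label gives the exposure schedule up to day 21. What FA stands for, and its dose, are likewise not stated.

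The series also holds the same 4 conditions at day 7 and 1 array of undifferentiated NCCIT cells. Each condition had 1 array. Nothing in the labels says whether the arrays came from separate cultures, so the p-values cover only how far these arrays vary, and that variation may be technical.

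Embryonal carcinoma cells are the malignant counterpart of pluripotent embryo cells and carry the same transcription factor network. When they aggregate and can no longer attach, they switch off pluripotency genes in steps and begin to express genes of the germ layers, among them HOX genes, which give cells their position along the body axis. Ethanol is oxidised by alcohol and aldehyde dehydrogenases, and some of these enzymes also make retinoic acid, a signal that drives such cells toward neural fates.

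The 4 arrays of day 21 correlated with each other at r of 0.994 to 0.997 across all transcript clusters. At day 7 the range was 0.990 to 0.997, and the EtOH array had the low end, at 0.990 to 0.991 with the others. Values are log2 expression from robust multi-array averaging (RMA), and the array medians lay between 7.67 and 7.76. Of the defining markers examined, 7 of 8 pluripotency markers and 4 of 7 neural markers lay above the median of all values (7.71) on all 4 arrays of day 21. The neural marker ELAVL4 lay below it on all 4. Most other lineages had some markers above it and some below it on all 4. Mesoderm had 2 of 5 above (MIXL1 and PDGFRA) with TBXT and KDR below, and endoderm had 2 of 4 above (SOX17 and GATA6) with FOXA2 below. Fibroblasts had 2 of 5 above (COL1A1 and COL3A1) with LUM and DCN below, and liver and yolk sac had APOA1 above with AFP, ALB and TTR below. CDX2 of trophoblast and HBE1 of blood lay above, CGA and ELF5 of trophoblast below, and all 4 endothelial markers lay below. Cells of these embryoid bodies were measured in bulk, so a smaller share of cells of one kind and less RNA per cell cannot be told apart.

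With ethanol at day 21, 4 of 29 pluripotency genes tested rose, led by DPPA3, as did 2 of 8 epithelial genes (CLDN7 and EPCAM) and 3 of 10 metallothionein list genes. Among the genes that fell were 3 of 8 protocadherin beta genes, the retinoic acid-making enzyme gene ALDH1A1 and PLAC8. With limma and Benjamini-Hochberg adjustment over the 12254 genes tested, 80 genes passed the threshold of 0.05 (0.653%), of which 50 were higher (0.408%) and 30 lower (0.245%) with ethanol. Their folds were between 1.38 and 2.82, and 8 genes reached 2-fold. The estimate for each gene is the mean of both matched differences, EtOH minus untreated and EtOH+FA minus FA, and both had the same sign in all 80. Many of the 30 lower genes passed the filter on low values only through day 21 arrays without ethanol. Their count is therefore raised in part by selection. With a filter on the mean of the day 21 arrays, 47 genes passed as higher and 17 as lower.

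The spread behind these p-values came from how far the matched differences departed from each other within each day. On the 4 arrays of day 21 alone, where the median standard error was 0.0510 against 0.0746 over the 8 arrays, limma called 818 genes (6.68%), 485 higher (3.96%) and 333 lower (2.72%), among them all 80. Leaving out any 1 array of day 21 left 2 to 6 genes past the threshold, always including DPPA3 and PLAC8.

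The matched differences share no array, so their agreement could be read without a test. Across the genes tested they correlated at r = 0.647, with SDs of 0.155 without FA and 0.152 with FA and medians of 0.02 and 0.01. Genes are not independent replicates, and each difference sets 1 array against 1. They had the same sign in 66.4% of genes, both above 0 in 39% and both below 0 in 27.4%. Both reached 1.5-fold in the same direction in 42 genes (0.343%), 27 higher (0.22%) and 15 lower (0.122%), and in opposite directions in 0 genes. Many of these 15 also entered only through day 21 arrays without ethanol. With a filter on the mean of the day 21 arrays, 24 were higher and 8 lower. Both arrays with ethanol lay above both without it in 24.8% of all genes tested and below both in 14.5%, together 39.3%. All 80 called genes were separated in this way, and since they were chosen on the same values, that and the cases below are a description.

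Of those 42 genes, 35 were among the 80 called by limma. The other 7 were MIR302B, CDH1, UCA1, SLC7A5, DPPA2, PCDHB11 and CHST9, with limma adjusted p-values between 0.0522 and 0.0725. Of the 42, the lowest smaller difference was that of DPPA2 (0.77 without FA, 0.59 with FA), just inside the 1.5-fold line. PCDHB16 (-0.71 without FA, -0.58 with FA) and CDH3 (0.58 without FA, 0.68 with FA) lay just outside it. Both were at least 2-fold in 6 genes, DPPA3, ERVH48-1, SLC16A14, SLCO4C1, PCDHB14 and PLAC8.

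**Figure D1:**
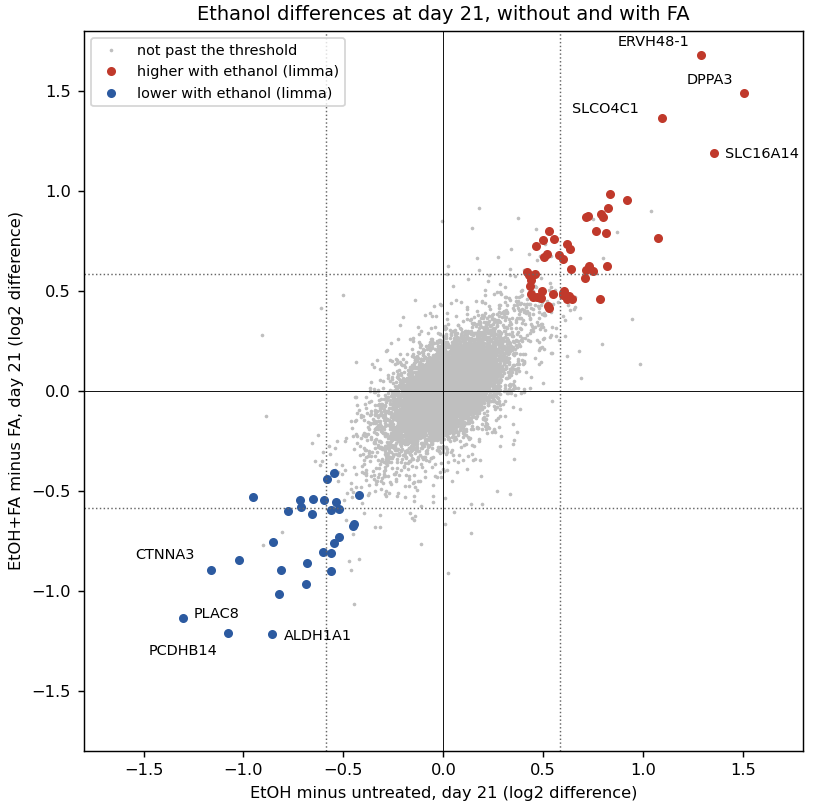
Each point is 1 of 12254 genes, with its log2 difference EtOH minus untreated on the horizontal axis and EtOH+FA minus FA on the vertical axis, both at day 21; dotted lines mark 1.5-fold. The 50 genes called higher (red) and the 30 called lower (blue) by limma lie in the quadrants where both differences have the same sign, with DPPA3 and ERVH48-1 farthest up and PLAC8 and PCDHB14 farthest down.

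DPPA3, which codes for a protein of early germ cells, oocytes and preimplantation embryos, stood at 9.97 with EtOH and 9.50 with EtOH+FA, against 8.46 untreated and 8.01 with FA. Both ethanol arrays lay above both arrays without ethanol. The gap of 1.504 without FA and 1.489 with FA gave a mean of 1.496 ± 0.068 (SE of the limma fit), 2.82-fold, with an adjusted p of 0.00239, the lowest of all genes. All 4 levels were below the 11.13 of undifferentiated cells. The array has 2 transcript clusters for DPPA3, and these values are of the one with the higher mean. DPPA3 has near-identical copies elsewhere in the genome that the array may not separate.

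Of 29 pluripotency genes tested, 4 passed the limma threshold, all higher with ethanol (DPPA3, GAL, DNMT3B and GDF3), and 22 had both matched differences above 0 while 3 had both below 0. Over all genes tested, 39% had both above 0 and 27.4% had both below 0. The median difference of the list was 0.20, against 0.02 over all genes tested. On the arrays of day 21 alone, 12 passed as higher and 1, SOX2, as lower, where 3.96% and 2.72% of all genes did. POU5F1 and NANOG have no transcript cluster of their own in the annotation used and are not analysed here, and 5 further members, NODAL and ESRRB among them, were too low to be tested.

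GAL, which codes for the neuropeptide galanin and is highly expressed in undifferentiated stem cells, stood at 9.01 with EtOH and 9.03 with EtOH+FA, against 8.19 untreated and 8.24 with FA (0.80 ± 0.06, limma adjusted p = 0.0131). DNMT3B, the DNA methyltransferase that sets new methylation in the early embryo, stood at 10.07 and 10.05 with EtOH and EtOH+FA, against 9.47 untreated and 9.55 with FA (0.55 ± 0.07, adjusted p = 0.0338). GDF3, a TGF-beta family ligand of pluripotent cells, stood at 10.82 and 10.60 with EtOH and EtOH+FA, against 10.22 untreated and 10.12 with FA (0.54 ± 0.07, adjusted p = 0.0338). In each of these genes the ethanol arrays lay above those without ethanol, as in 24.8% of all genes. All of their levels at day 21 were below those of undifferentiated cells, which were 10.54 for GAL, 12.23 for DNMT3B and 12.19 for GDF3.

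DPPA2, a nuclear protein of pluripotent cells, was at 8.59 with EtOH and 8.06 with EtOH+FA, against 7.83 untreated and 7.47 with FA (0.68, limma adjusted p = 0.0666). CRIPTO, the co-receptor of NODAL, had a difference of 0.52 (adjusted p = 0.0555), and the near-identical copy CRIPTO3 one of 0.63 (adjusted p = 0.0363), so the probes of one may read the other. POLR3G (0.47), a subunit of RNA polymerase III that is abundant in stem cells, ZFP42 (0.42), a zinc finger protein used as a stem cell marker, and PRDM14 (0.40), a repressor that guards pluripotency, did not pass the limma threshold over the 8 arrays. The exception in direction was SOX2, a core pluripotency factor that neural progenitors also express. It stood at 11.4 with EtOH and 11.3 with EtOH+FA, against 11.7 untreated and 11.6 with FA (-0.27, adjusted p = 0.169). SALL4, another factor of that network, had both differences below 0 as well (-0.08 without FA and -0.28 with FA). LIN28A, the RNA-binding protein that blocks let-7 maturation, had a difference of 0.24.

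PRDM1, a repressor needed for germ cell specification in mice, rose to 9.85 with EtOH and 9.68 with EtOH+FA, against 9.08 untreated and 8.87 with FA (0.78 ± 0.06, limma adjusted p = 0.0131). Unlike the genes above, its level in undifferentiated cells was lower, at 6.96. Of the 10 germ cell genes listed, the late markers DAZL, DDX4 and SYCP3 among them, 9 were too low to be tested, and the remaining one, NANOS3, had a difference of 0.03.

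MIR302B and MIR19B2, a pair of miRNA genes that the naming rule passed over, are shown because miR-302 is the miRNA family most typical of human pluripotent cells and because MIR19B2 moved the other way. They were chosen after their values were seen. The mature arms from RefSeq (GRCh38.p14) are given 5′ to 3′ with the seed, bases 2 to 8, in capitals. The miR-302b-3p arm lies at chr4:112648489-112648511 and the miR-19b-3p arm at chrX:134169683-134169705, both on the minus strand.
hsa-miR-302b-3p: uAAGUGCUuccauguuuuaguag
hsa-miR-19b-3p: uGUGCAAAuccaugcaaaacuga
The seeds differ. The array reads the precursor transcript and not these mature arms. MIR302B stood at 7.41 with EtOH and 6.69 with EtOH+FA, against 6.37 untreated and 5.79 with FA, a difference of 0.97 (limma adjusted p = 0.0555), and it was at 9.93 in undifferentiated cells. MIR19B2 fell to 6.96 with EtOH and 6.79 with EtOH+FA, against 7.81 untreated and 7.54 with FA, a difference of -0.80 (adjusted p = 0.0210). At day 7 the ethanol difference of MIR302B had the opposite sign, -0.71 (-1.05 without FA and -0.36 with FA). That of MIR19B2 at day 7 was -0.53, the same direction as at day 21.

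Of 8 epithelial genes tested, CLDN7 and EPCAM passed, both higher with ethanol. CLDN7, a tight junction claudin, rose to 10.07 with EtOH and 10.02 with EtOH+FA, against 9.24 untreated and 9.04 with FA (0.91 ± 0.11, limma adjusted p = 0.0313). EPCAM, an adhesion molecule of epithelial and pluripotent cells, rose to 10.19 with EtOH and 10.06 with EtOH+FA, against 9.36 untreated and 9.15 with FA (0.87 ± 0.09, adjusted p = 0.0210). These values are of 1 of its 2 transcript clusters, the one with the higher mean, and which locus it reads was not checked. CDH1, which codes for E-cadherin, was at 8.92 with EtOH and 8.77 with EtOH+FA, against 8.05 untreated and 7.98 with FA (0.83 ± 0.13, adjusted p = 0.0545). In these 3 genes both arrays with ethanol lay above both without it, as in 24.8% of all genes. Undifferentiated cells had 9.14 for CLDN7, 9.44 for EPCAM and 8.81 for CDH1.

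Of the list, 7 genes had both matched differences above 0 and 0 had both below 0, with a list median of 0.33. The shares over all genes were 39% above 0 and 27.4% below 0. The exception was the junction scaffold gene TJP1 (-0.08 without FA and 0.02 with FA). Summed over the 8 genes, log2 levels were 80.1 with EtOH and 80.0 with EtOH+FA, against 76.7 untreated and 76.3 with FA. Several of these genes, EPCAM and CDH1 among them, are also expressed by pluripotent cells. Outside the list, MAL2 (0.80), a protein of apical transport, and SCNN1A (0.79), a subunit of the epithelial sodium channel, rose in the limma test, as did CDH3 (0.63), which codes for P-cadherin, and CLDN6 (0.49), another claudin. The junction gene CTNNA3 (-1.03) fell.

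Of 5 SLC16 genes tested, 2 passed, both higher with ethanol. SLC16A14, an orphan of the monocarboxylate transporter family, rose to 8.97 with EtOH and 8.88 with EtOH+FA, against 7.61 untreated and 7.69 with FA (1.27 ± 0.13, limma adjusted p = 0.0210). SLCO4C1, an organic anion transporter, rose to 8.67 with EtOH and 8.71 with EtOH+FA, against 7.57 untreated and 7.35 with FA (1.23 ± 0.10, adjusted p = 0.0131). SLC44A2, a choline transporter-like protein, rose by 0.94 and SLC16A9, another member of the monocarboxylate family, by 0.92. In these 4 genes both arrays with ethanol lay above both without it, as in 24.8% of all genes. SLC16A10 (0.28) did not pass, and SLC16A5 (-0.14) had both differences below 0.

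ERVH48-1, an endogenous retroviral gene whose product, suppressyn, blocks cell fusion by syncytin in the placenta, had the second largest increase after DPPA3. It stood at 10.88 with EtOH and 10.71 with EtOH+FA, against 9.60 untreated and 9.03 with FA (1.48 ± 0.13, limma adjusted p = 0.0145). Trophoblast genes as a list did not show this: 0 of 6 passed, and KRT18 had the largest difference (0.38), with 4 of 6 above 0 in both pairs. Of all genes tested, 39% were above 0 in both pairs. Endogenous retroviral copies resemble each other, so the probes may read more than one locus.

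Further increases fell outside these groups. S100A11 (0.84), a calcium-binding protein, INA (0.83), a neuronal intermediate filament protein, and TIMP4 (0.72), an inhibitor of matrix metalloproteinases, were among the 15 largest. ID1 (0.66), a target of BMP signalling that blocks basic helix-loop-helix factors, was the 1 of 16 BMP and ID genes to pass. PMAIP1 (0.67), which codes for the pro-apoptotic protein NOXA, was the 1 of 13 p53 targets to pass, and TNFRSF10B (-0.17), a p53 target as well, had both differences below 0. ALDH1L2 (0.67), the mitochondrial enzyme that oxidises formyl-tetrahydrofolate, was the 1 of 19 folate and serine genes to pass.

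**Figure D2:**
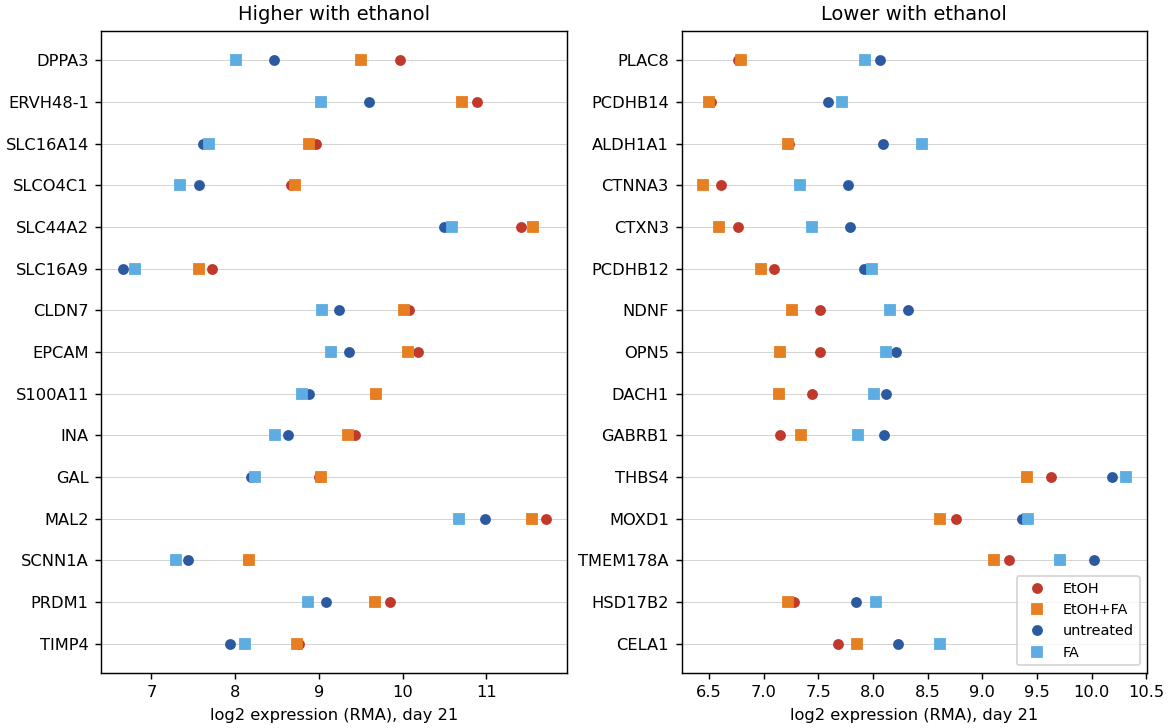
Log2 expression of the 15 genes with the largest increase (left) and the 15 with the largest decrease (right) among those called by limma, 1 symbol per day 21 array (EtOH and EtOH+FA in red and orange, untreated and FA in dark and light blue). In each of the 30 genes, which were chosen on these values, both arrays with ethanol lie on one side of both arrays without it, as they do in 39.3% of all genes tested.

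Metallothioneins, small proteins that bind zinc and copper and are induced by metals and stress, leaned higher with ethanol. MT1E rose to 9.37 with EtOH and 9.39 with EtOH+FA, against 8.66 untreated and 8.83 with FA (0.64 ± 0.07, limma adjusted p = 0.0264). MT2A rose to 12.42 with EtOH and 12.43 with EtOH+FA, against 11.98 untreated and 11.95 with FA (0.46 ± 0.06, adjusted p = 0.0474). The array has 3 transcript clusters for MT2A, and these values are of the one with the highest mean. Which locus that cluster reads was not checked. MT1G rose by 0.47 (adjusted p = 0.0479). These were the 3 of 10 genes of the list to pass, and 9 of 10 had both differences above 0, against 39% of all genes, with a median of 0.30. The exception, SLC30A1, is a zinc exporter controlled by the same factor and had 0.08 without FA and -0.05 with FA. The zinc importer gene SLC39A8, outside the list, rose by 0.46 (adjusted p = 0.0479). MT1 genes are near-identical in sequence, so their probes may share signal and they are not independent of each other.

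The promoter of MT2A is shown because this gene passed the test and its promoter is known for several metal response elements, the sites of the zinc-sensing factor MTF1. It spans the 250 bases before the gene start in RefSeq (GRCh38.p14), chr16:56608334-56608583 on the plus strand, with the 7 matches to TGCACNC or TGCGCNC on either strand in capitals.
MT2A: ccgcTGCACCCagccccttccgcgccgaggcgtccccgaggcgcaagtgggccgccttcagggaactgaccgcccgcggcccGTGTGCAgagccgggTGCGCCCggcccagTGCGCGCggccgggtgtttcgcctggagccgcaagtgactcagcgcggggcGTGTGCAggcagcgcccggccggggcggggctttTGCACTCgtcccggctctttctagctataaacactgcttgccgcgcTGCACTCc
All 5 list members with an entry, MT1B, MT1H, MT1X, MT2A and SLC30A1, held at least 1 match, against 28.5% of the 27305 genes with a promoter window. SLC30A1, whose level differed little, held 1 match, and the 4 metallothionein genes held 3 to 8. These motifs were chosen after the values were seen, and a match is a description of letters.

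Protocadherin beta genes, a cluster of cell surface adhesion genes on chromosome 5 that neurons express in individual combinations, leaned lower with ethanol. PCDHB14 fell to 6.52 with EtOH and 6.50 with EtOH+FA, against 7.59 untreated and 7.71 with FA (-1.14 ± 0.07, limma adjusted p = 0.00545). PCDHB12 fell to 7.10 with EtOH and 6.98 with EtOH+FA, against 7.92 untreated and 7.99 with FA (-0.92 ± 0.08, adjusted p = 0.0144). PCDHB16 fell to 7.37 with EtOH and 7.46 with EtOH+FA, against 8.08 untreated and 8.04 with FA (-0.65 ± 0.07, adjusted p = 0.0251). Both arrays with ethanol lay below both arrays without it in each of them, as in 14.5% of all genes.

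Of the 16 genes of the cluster, 8 were high enough on some array to be tested. All of these had both matched differences below 0, against 27.4% of all genes tested, with a median of -0.65. PCDHB14 exceeded the filter level of 7.71 only on the FA array of day 21, and PCDHB12 only on the day 21 arrays without ethanol. The filter admitted these genes through the group where they were high, so the count and the median lean lower in part by selection. The 3 named were the ones to pass, and PCDHB9 (-0.66, adjusted p = 0.05002) and PCDHB11 (-0.76, adjusted p = 0.0725) did not. The smallest differences were those of PCDHB2 (-0.26) and PCDHB5 (-0.21). With ethanol PCDHB14, PCDHB12, PCDHB16 and PCDHB9 were below the median of all values on both arrays, where RMA compresses differences. PCDHB11 was below it on the EtOH array (7.64), and PCDHB14 was below it untreated too (7.59). The genes are similar in sequence and their probes may share signal.

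Protocadherin promoters are known for a conserved element near the start site, bound by CTCF. The last 100 bases before the gene start in RefSeq (GRCh38.p14) are shown for the 3 genes that passed, all on the plus strand, with GGTGGCGCT in capitals. They are chr5:141223243-141223342 for PCDHB14, chr5:141208619-141208718 for PCDHB12 and chr5:141182287-141182386 for PCDHB16.
PCDHB14: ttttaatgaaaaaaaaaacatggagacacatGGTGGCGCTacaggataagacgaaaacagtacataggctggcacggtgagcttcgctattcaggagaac
PCDHB12: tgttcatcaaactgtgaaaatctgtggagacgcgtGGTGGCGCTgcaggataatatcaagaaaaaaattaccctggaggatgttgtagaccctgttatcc
PCDHB16: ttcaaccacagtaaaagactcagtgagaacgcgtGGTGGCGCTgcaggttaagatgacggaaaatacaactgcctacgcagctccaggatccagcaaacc
The letters occurred in the 250 bases before the start of all 7 tested members with an entry, on either strand, and in 0.516% of all 27305 genes (141 genes). They were present in PCDHB5 and PCDHB2, with the smallest differences, as in PCDHB14. The motif was found in the promoters of genes that fell, so its presence in the 3 sequences shown is no result.

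PLAC8, a small cysteine-rich protein, had the largest decrease, at 6.76 with EtOH and 6.79 with EtOH+FA, against 8.07 untreated and 7.93 with FA (-1.22 ± 0.07, limma adjusted p = 0.00545). ALDH1A1, the enzyme that oxidises retinaldehyde to retinoic acid and also acts on other aldehydes, fell to 7.23 with EtOH and 7.23 with EtOH+FA, against 8.09 untreated and 8.44 with FA (-1.04 ± 0.09, adjusted p = 0.0175). CTNNA3, an alpha-catenin of cell junctions, fell to 6.62 with EtOH and 6.44 with EtOH+FA, against 7.78 untreated and 7.34 with FA (-1.03 ± 0.08, adjusted p = 0.0131). PLAC8 was the nearest of the 3 to the level in undifferentiated cells, 6.55.

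ALDH1A1 was the 1 of 16 retinoic acid signalling genes and the 1 of 8 ethanol and aldehyde oxidation genes to pass. The retinoic acid list had a median of -0.01, with 5 genes above 0 and 6 below 0 in both pairs, where 39% and 27.4% of all genes were. CRABP2, the protein that carries retinoic acid to its receptor, had a difference of 0.53 (limma adjusted p = 0.108), LRAT, which stores retinol as ester, one of 0.36, and RDH10, which makes retinaldehyde, one of 0.26. In the oxidation list, ALDH2, the main acetaldehyde dehydrogenase, had a difference of 0.14 and ALDH3A2 one of 0.17. ADH1A, ADH1B, ADH4 and CYP2E1, which oxidise ethanol in liver, were too low to be tested.

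Neural genes were lower and higher in nearly equal numbers. Of 21 neural progenitor genes, 1 passed: DACH1, a transcriptional cofactor of eye and brain development, fell to 7.44 with EtOH and 7.14 with EtOH+FA, against 8.12 untreated and 8.01 with FA (-0.77 ± 0.08, limma adjusted p = 0.0210). OTX2, which patterns the forebrain and midbrain, was at 8.55 with EtOH and 8.18 with EtOH+FA, against 9.003 untreated and 9.25 with FA (-0.76, adjusted p = 0.0930). PAX6 had a difference of -0.29 and ZIC1 one of -0.23. In the list 5 genes had both differences above 0 and 7 below 0, with a median of -0.02, where 39% and 27.4% of all genes did.

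Of 14 neuron genes, 2 passed, both higher. INA stood at 9.43 with EtOH and 9.35 with EtOH+FA, against 8.63 untreated and 8.48 with FA (limma adjusted p = 0.0131). NCAM1, the neural cell adhesion molecule, stood at 10.10 with EtOH and 10.18 with EtOH+FA, against 9.68 untreated and 9.58 with FA (0.51 ± 0.07, adjusted p = 0.0479). The dendrite protein gene MAP2, in contrast, had a difference of -0.37 (adjusted p = 0.347). The neural crest list had 1 of 11 past the threshold, the neurotrophin receptor NGFR (0.52), and SNAI2 had a difference of 0.42 that did not pass. Genes of nervous tissue outside the lists went both ways in the test. DRAXIN (0.67), an axon guidance protein, and GRIA1 (0.48), a glutamate receptor subunit, rose. NDNF (-0.85), a secreted factor of neurons, GABRB1 (-0.74), a GABA receptor subunit, and PTPRZ1 (-0.57), a receptor phosphatase of glia and progenitors, fell.

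HOX genes leaned lower without any passing over the 8 arrays. Of 18 tested, 13 had both matched differences below 0 and 5 above 0, with a median of -0.17, where 27.4% and 39% of all genes did. HOXC5 was at 10.1 with EtOH and 10.2 with EtOH+FA, against 10.5 untreated and 10.7 with FA (-0.45, limma adjusted p = 0.169). HOXB5 (-0.40), HOXB8 (-0.38) and HOXB9 (-0.37) followed. On the arrays of day 21 alone these 4 passed as lower and HOXC8 (0.34) as higher, where 2.72% and 3.96% of all genes did. In undifferentiated cells HOXC5 was at 6.46.

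Endoderm genes split. Of 10 tested, EPCAM and CLDN6 rose, and PROX1, a homeobox factor of liver, pancreas and lens, fell (-0.63), as did CXCR4 (-0.51), a chemokine receptor of definitive endoderm and many other cells. PROX1 stood at 9.28 with EtOH and 9.17 with EtOH+FA, against 9.80 untreated and 9.90 with FA (limma adjusted p = 0.0338). EPCAM and CLDN6 are pluripotent cell genes as much as endoderm genes. A2M (-0.60), a plasma protease inhibitor, fell and was the 1 of 3 tested liver and yolk sac genes to pass, while ceruloplasmin, CP, had a difference of -0.42 (adjusted p = 0.108).

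Mesoderm and its derivatives gave no calls over the 8 arrays: 0 of 9 early mesoderm genes, 0 of 5 heart and muscle genes, 0 of 6 endothelial and blood genes and 0 of 15 mesenchyme and matrix genes passed. In early mesoderm the largest difference of 1 sign was that of MIXL1 (0.15). FLT1, a VEGF receptor, had a difference of 0.42 and PTPRB, an endothelial phosphatase, one of -0.38. Among matrix genes LOX (0.47), FBN1 (0.40) and FN1 (0.36) had both differences above 0. Too low to be tested were 6 of 15 early mesoderm genes, 12 of 17 heart and muscle genes, 10 of 16 endothelial and blood genes and 5 of 20 mesenchyme and matrix genes.

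**Figure D3:**
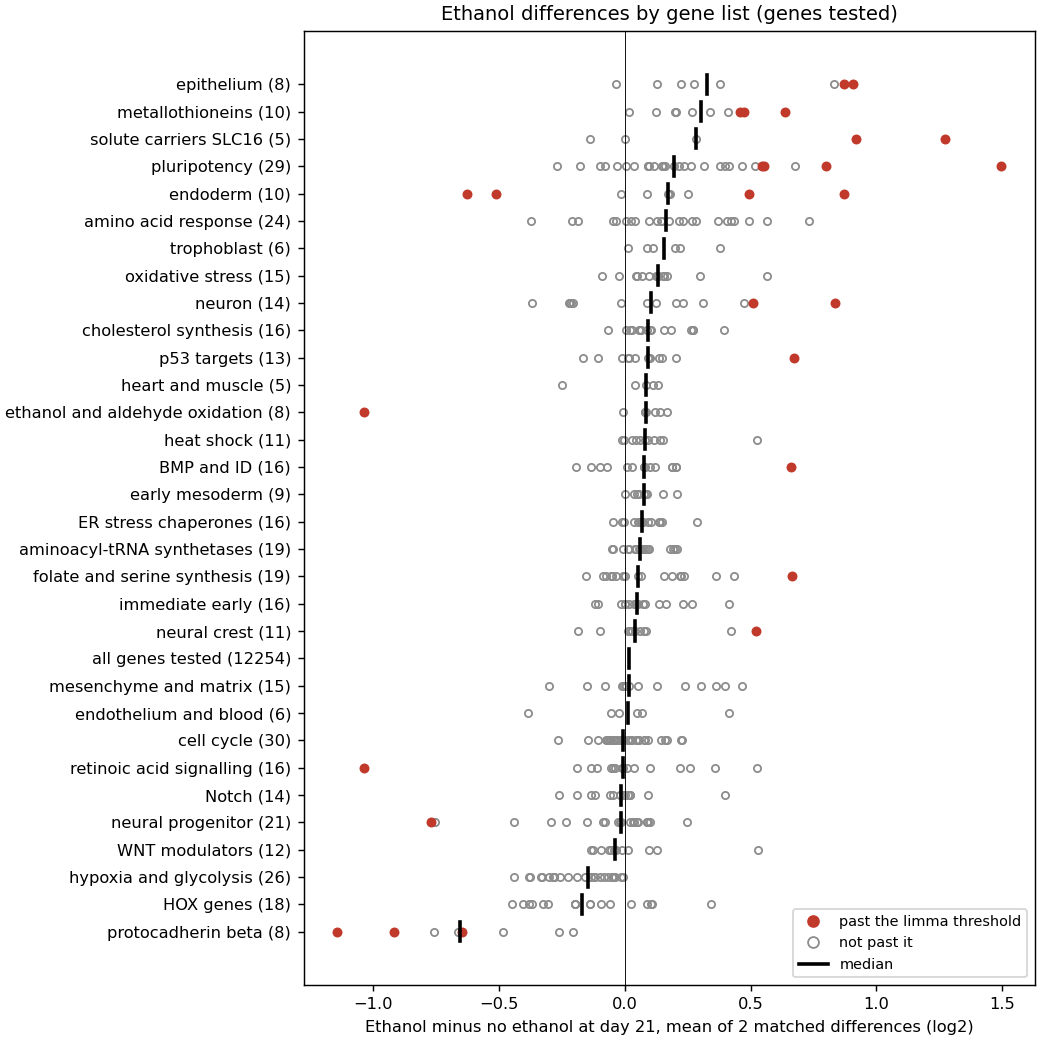
Mean matched log2 difference at day 21 (ethanol minus no ethanol) for each tested gene of the lists with at least 5 genes tested, with the number tested beside each name; filled red points passed the limma threshold and black bars are medians. Epithelial genes have the highest median (0.33) and protocadherin beta genes the lowest (-0.65), against 0.02 over all genes.

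Metabolic and stress lists differed in direction with few calls. All 26 hypoxia and glycolysis genes were tested, and 0 passed over the 8 arrays. Both matched differences were below 0 in 23 and above 0 in 0, where 27.4% and 39% of all genes were. The list median was -0.15. INSIG2 (-0.44), PDK1 (-0.38), VEGFA (-0.38) and PFKFB3 (-0.33) had the largest differences. PDK1, which keeps pyruvate out of mitochondria, was at 11.8 with EtOH and 11.8 with EtOH+FA, against 12.1 untreated and 12.2 with FA (limma adjusted p = 0.313). On the arrays of day 21 alone 9 passed, all lower, where 2.72% of all genes passed as lower. The core hypoxia response letters ACGTG occurred in 72.7% of the 22 members with a promoter entry and in 21.7% of all genes, on either strand. The list was made of hypoxia response genes, so this excess follows from its choice and is no result of these arrays.

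The amino acid response list, targets of the transcription factor ATF4, leaned higher. Of 24 tested, 16 had both differences above 0 and 4 below 0, where 39% and 27.4% of all genes did. The median was 0.16, with 0 past the threshold over the 8 arrays. SLC7A5, a leucine transporter, was at 9.30 with EtOH and 9.29 with EtOH+FA, against 8.50 untreated and 8.63 with FA (0.73, limma adjusted p = 0.0522). SLC7A11, the cystine importer, had a difference of 0.56, CHAC1, which degrades glutathione, one of 0.49, and SLC1A4, a neutral amino acid transporter, one of 0.43. On the arrays of day 21 alone 9 passed as higher and 1 as lower, where 3.96% and 2.72% of all genes did. The element TGATGNAA was present in 5 of 21 members with an entry (23.8%) and in 3.89% of all genes. It is the element of ATF4 and the list holds targets of ATF4, so this share too follows from the choice of list.

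Other lists stayed nearer to the median of all genes. Cholesterol synthesis had 11 of 16 above 0 and 0 below 0 in both pairs, with a median of 0.09 and DHCR7 (0.40), the last enzyme of the pathway, largest. Oxidative stress genes had 12 of 15 and heat shock genes 9 of 11 above 0 in both pairs, with medians of 0.13 and 0.08. Over all genes tested, 39% were above 0 in both pairs and 27.4% below 0. ER chaperones (median 0.07), aminoacyl-tRNA synthetases (0.06), immediate early genes (0.05), Notch genes (-0.01), WNT modulators (-0.04) and cell cycle genes (-0.01) had 0 calls each over the 8 arrays. Within them SFRP1 (0.53), a WNT antagonist, HEY1 (0.40), a Notch target, and SPRY4 (0.41), a feedback inhibitor of growth factor signalling, had the largest differences.

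Whether the matched differences depend on FA was tested directly. With a term for ethanol by FA at day 21 in limma, 0 genes passed (0%), 50 had an unadjusted p under 0.05, and the lowest adjusted p was 1. The test has 1 residual degree of freedom and is weak. The largest gaps, EtOH+FA minus FA less EtOH minus untreated, were those of TECRL (1.19), MSL3B (1.03) and DTX2 (0.98) upward and DBX1 (-0.93), TIMP3 (-0.85) and NECAB1 (-0.85) downward. DBX1, a homeobox gene of spinal cord interneuron progenitors, was at 10.90 with EtOH and 10.33 with EtOH+FA, against 10.87 untreated and 11.24 with FA. TECRL was at 7.60 with EtOH and 7.75 with EtOH+FA, against 8.51 untreated and 7.47 with FA, so that the untreated array stood highest.

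The difference between the ethanol effect at day 21 and at day 7 was tested in the same limma fit. Of 12254 genes, 1 passed upward (0.00816%) and 2 downward (0.0163%), and 1189 had an unadjusted p under 0.05. DPPA3 had an ethanol difference of 1.496 at day 21 and -0.01 at day 7, a gap of 1.51 ± 0.10 (adjusted p = 0.0171). With the mean of its 2 transcript clusters DPPA3 had a smaller gap, 1.17 (limma adjusted p = 0.0487). At day 7 it stood at 10.82 with EtOH and 10.67 with EtOH+FA, against 10.77 untreated and 10.74 with FA, all near the undifferentiated level. PLAC8 had -1.22 at day 21 and -0.02 at day 7, a gap of -1.20 ± 0.10 (adjusted p = 0.0473), and its 4 arrays of day 7 lay between 6.48 and 6.57.

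SHISA3, an inhibitor of WNT and FGF receptor maturation, differed the other way. It was at 9.17 with EtOH and 9.12 with EtOH+FA at day 21, against 9.41 untreated and 9.31 with FA. At day 7 it was at 9.10 with EtOH and 8.89 with EtOH+FA, against 7.49 untreated and 7.53 with FA. Its ethanol difference was therefore -0.21 at day 21 and 1.48 at day 7, a gap of -1.69 ± 0.12 (limma adjusted p = 0.0171), and at day 21 all 4 arrays were near the level that only the ethanol arrays had at day 7. With arrays centred on their median, none of the 3 genes passed (adjusted p = 0.0640 for DPPA3 and SHISA3 and 0.0795 for PLAC8), and PLAC8 did not pass with no filter on low genes either (adjusted p = 0.0940).

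ERVH48-1 (gap 1.54, limma adjusted p = 0.0713), CRABP2 (1.31, adjusted p = 0.0713), CDH1 (1.18, adjusted p = 0.106) and ALDH1A1 (-1.26, adjusted p = 0.0713) had large gaps that did not pass. So did MIR302B (1.68, adjusted p = 0.0713), PTPRB (1.37, adjusted p = 0.126) and LAMA4 (-1.20, adjusted p = 0.0741). CRABP2 was at 11.93 with EtOH and 11.95 with EtOH+FA, against 11.37 untreated and 11.47 with FA, at day 21. At day 7 its order was the opposite, 8.41 with EtOH and 8.81 with EtOH+FA, against 9.42 untreated and 9.38 with FA.

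Among the 50 genes called higher at day 21, 43 had a mean ethanol difference above 0 at day 7 too and 40 had it in both day 7 pairs, where 57.6% and 33.1% of all genes tested did. Of the 30 called lower, 19 were below 0 at day 7 and 14 were so in both pairs, where 42.4% and 23.6% of all genes did. Median differences were 0.63 at day 21 and 0.25 at day 7 for the genes called higher, and -0.67 at day 21 and -0.07 at day 7 for those called lower. The days share no array, and since the genes were chosen by their day 21 values, the day 21 medians are a description. The spread used to call them came in part from how far the day 7 pairs departed from each other. Genes whose day 7 pairs were close to each other were thus favoured, and the counts in both day 7 pairs are raised in part by selection. SLCO4C1 (1.23 at day 21, 1.04 at day 7) and ALDH1L2 (0.67 at day 21, 0.76 at day 7) had close values at both days. Among the genes that fell, PCDHB14 (-1.14 at day 21, -0.64 at day 7) and CXCR4 (-0.51 at day 21, -0.55 at day 7) were lower on both.

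**Figure D4:**
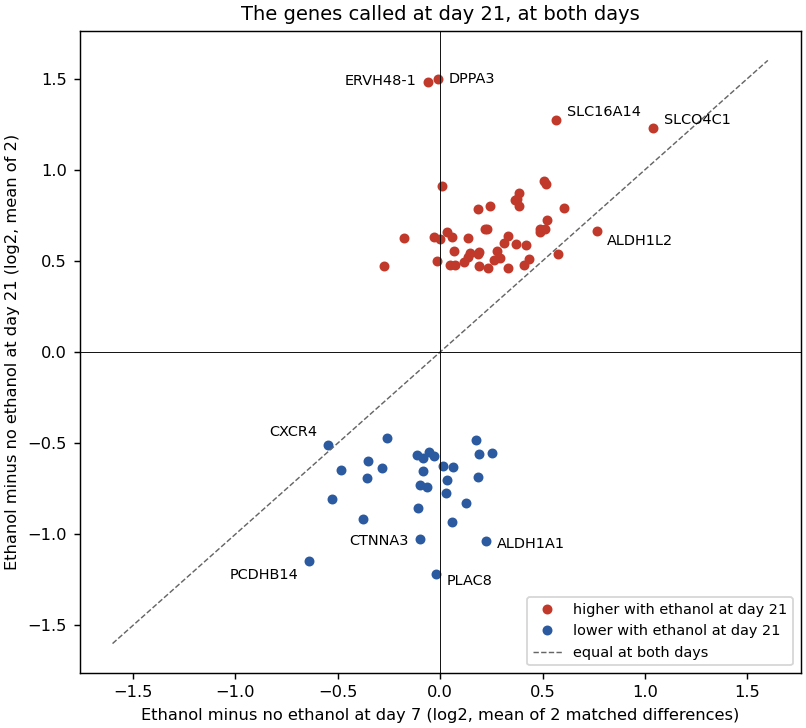
Mean ethanol difference (log2) at day 7 on the horizontal axis and at day 21 on the vertical axis for the 80 genes called at day 21, 50 higher (red) and 30 lower (blue); the dashed line marks equal values. DPPA3, ERVH48-1 and PLAC8 lie near 0 at day 7, while SLCO4C1 and CXCR4 lie near the dashed line.

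The ethanol difference was also set against the change that the arrays without ethanol went through between day 7 and day 21, a comparison chosen after the values were seen and given with no test. To keep the arrays separate, the pair without FA was set against the change of the FA arrays, and the pair with FA against that of the untreated arrays. For the 263 genes at least 2-fold lower in FA at day 21 than in FA at day 7, the median of EtOH minus untreated was 0.14, and 68.8% lay above 0, against 57.7% of all genes. For the 425 genes at least 2-fold higher the median was -0.06, and 63.1% lay below 0, against 41.3% of all genes.

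With the other arrays the picture had the same direction and smaller values. For the 250 genes at least 2-fold lower in untreated at day 21 than at day 7, the median of EtOH+FA minus FA was 0.09, with 61.6% above 0, against 52.6% of all genes. For the 511 genes at least 2-fold higher it was -0.03, with 55.6% below 0, against 44.8% of all genes. At 4-fold, the genes that had gone down with time had medians of 0.43 (36 genes) without FA and 0.28 (31 genes) with FA. Those that had gone up had medians of -0.09 (129 genes) and -0.06 (142 genes). Genes that went down with time were on the median higher with ethanol at day 21, and genes that went up were on the median slightly lower, in both comparisons.

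**Figure D5:**
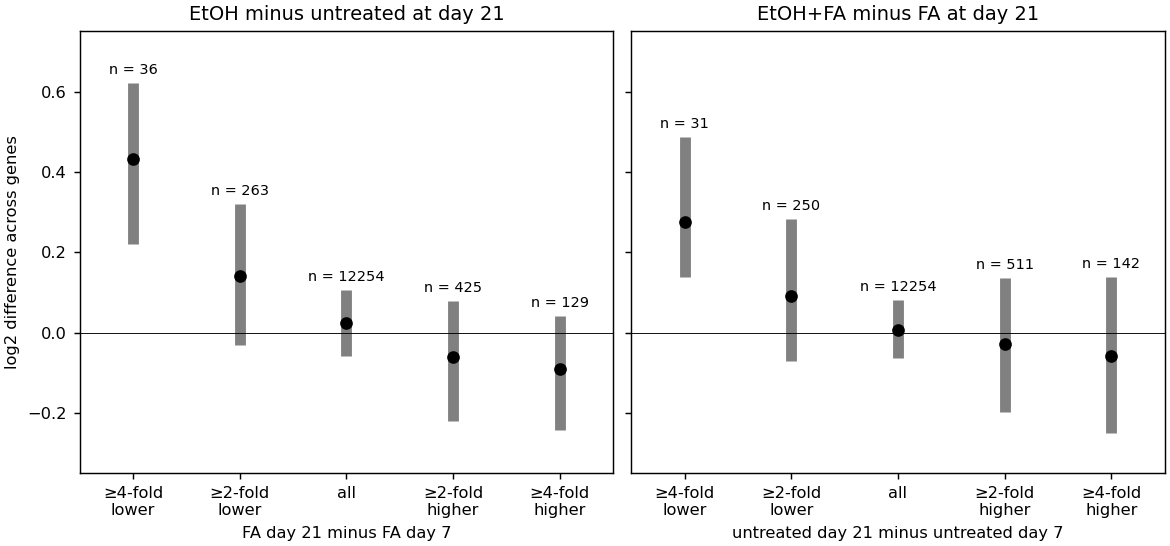
Median (point) and quartiles (bar) of the ethanol difference at day 21 (log2, across genes) for genes grouped by their change between day 7 and day 21 on arrays that are not in that difference: EtOH minus untreated by the FA arrays (left), and EtOH+FA minus FA by the untreated arrays (right). Genes at least 4-fold lower with time have medians of 0.43 (left) and 0.28 (right), and genes at least 4-fold higher have medians of -0.09 and -0.06; the 4-fold groups lie within the 2-fold groups.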

How the data were processed

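Per the submitters' processing notes, the authors used RMA and Affymetrix Expression Console 1.3.1. The deposited values are on a log2 scale, a base inferred from their range of 2.49 to 14.3. RMA draws arrays toward one distribution and shrinks differences between low values. The build behind the platform annotation is not stated. Per the labels' protocols, total RNA was taken up with Trizol and biotin-labelled.

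Of 33297 transcript clusters, 19460 had 1 gene symbol in the platform annotation, which gave 18417 genes; 1754 clusters had several and 12083 none. A gene with several clusters was represented by the one with the highest mean. The test took the 12254 genes that reached above 7.71, the median of all values, on at least 1 of the 9 arrays. A gene could thus enter through 1 group alone. Among the genes called lower, PLAC8, ALDH1A1, CTNNA3, DACH1, NDNF, GABRB1, CTXN3 and OPN5 exceeded that level only on day 21 arrays without ethanol. The same held for HSD17B2, ABCB4, SEMA3E, MIR19B2, VTRNA1-1, PCDHB12 and PCDHB14. SLC16A14, SULT1C2 and PTPN3, called higher, exceeded that level only on arrays with ethanol.

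limma 3.58.1 in R 4.3.3 was fitted to the 8 embryoid body arrays with terms for day, FA within day and ethanol within day (2 residual and 4.63 prior degrees of freedom). The ethanol term at day 21 uses the 4 arrays of that day, and day 7 enters through the spread. Benjamini-Hochberg adjustment ran over all genes tested, at a threshold of 0.05. An exact permutation test over 2 pairs cannot go below 0.5 and was not used. The procedure was tested on simulated data.

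A rule that passed over small RNAs and provisional names picked genes for naming. It took the 15 largest called increases and the 15 largest called decreases. From every one of 33 lists it took no more than 4 genes with both matched differences of one sign. It also took the 5 largest differences each way between days and by FA. Not all of these are described above, some list and FA genes among them. Of the decreases, CTXN3 (-0.93), OPN5 (-0.83), THBS4 (-0.73), MOXD1 (-0.70), TMEM178A (-0.69), HSD17B2 (-0.69) and CELA1 (-0.65) were left out of the descriptions. Other genes were named after their values were seen. The arrays, lists and members were chosen with earlier results of these data known.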

Additional observations from a re-analysis of the deposited data

Results flagged for a closer look

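In 3 genes the ethanol difference at day 21 differed from that at day 7 in the test of the difference itself (limma, 8 arrays). Day 21 minus day 7, on the log2 scale, was 1.51 for DPPA3, -1.20 for PLAC8 and -1.69 for SHISA3. For DPPA3 it was 1.17 with the mean of its 2 transcript clusters. The EtOH array of day 7 correlated least with the others of its day. In a run without it, chosen after seeing the data, the gaps were 1.57 for DPPA3, -1.17 for PLAC8 and -1.57 for SHISA3. That run has 1 ethanol array at day 7 and takes its spread from the day 21 arrays alone, so passing in it shows little. With arrays centred on their median 0 of the 3 passed, and with no filter on low genes DPPA3 and SHISA3 passed. They also passed with a filter on the day 21 mean, which left PLAC8 untested.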

How the results depend on the processing

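The count of 80 genes moved with the setting. With a filter on the mean of the day 21 arrays the count was 64 (47 higher, 17 lower). It was 45 (27 higher, 18 lower) with no filter on low genes, 41 (22 higher, 19 lower) with arrays centred on their median, 182 (134 higher, 48 lower) with a mean-variance trend, 16 (9 higher, 7 lower) with 1 FA term common to both days, and 818 on the 4 arrays of day 21 alone. Leaving out 1 array at a time gave 2 to 818. It was 2 without the EtOH+FA or the FA array of day 21, 6 without the EtOH or the untreated array, and 818 without any 1 array of day 7. Without 1 array of day 7 the spread rests on the day 21 arrays alone. Of the 30 genes with the largest called differences, 26 still passed after centring and 15 with 1 FA term. The 3 genes that differed between days became 0 after centring, 42 with the trend (21 higher, 21 lower) and 203 (69 higher, 134 lower) without the EtOH array of day 7, a setting chosen after seeing the data. The 42 genes with both differences at least 1.5-fold became 6 at 2-fold and 260 at 5/4-fold, with 4 in opposite directions. With a filter on the mean of the day 21 arrays, list medians were -0.023 for endothelium and blood, 0.20 for trophoblast, -0.18 for liver and yolk sac, -0.48 for protocadherin beta (5 genes) and 0.14 for SLC16. The epithelial median was 0.33 with the mean of all clusters and 0.31 after centring, which gave 0.051 for ER chaperones, -0.024 for cell cycle and -0.052 for WNT modulators. No difference that passed changed direction under any alternative run. For ethanol at day 21 this was largely fixed in advance, since both matched differences share a sign in all 80 genes and many settings leave the estimate unchanged. The count for ethanol by FA was 0 in each run of that test. The causes were not tested. No paired analysis was possible because the labels carry no replicate numbers; the match on FA is a term of the fit. The 1 array per condition limits the precision of every value, and dim genes sit where RMA compresses differences.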
